A study of Homo sapiens with 4 samples.

Results

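The immediate-early transcription factor genes of the FOS, JUN and EGR families, with IER2 and ATF3, were described on 4 arrays of human lymphoma cells. These came from a pair of B-cell lines and, for each line, a subline that resists rituximab, an antibody against the B-cell surface protein CD20. All probe sets that the platform annotation assigns to a single gene symbol on the list of 10 genes were taken. This gave 19 probe sets of 9 genes, out of 41091 probe sets and 19775 genes so named. The list holds 1 more gene, EGR2, which was not analysed here because no probe set is named for it in the annotation used. The members were chosen by their resistant over parental ratios on these same arrays, in which EGR1 and FOS had been higher and JUN lower in a resistant subline. Those ratios are therefore given as a description and were not tested. The 4 groups were the parental mantle cell lymphoma line Jeko-1, its subline Jeko-1/R, the parental Burkitt lymphoma line Raji and its subline Raji/R. The labels describe the sublines as cells treated with rituximab and the parents as cells without it; dose, duration and the interval from the last exposure to RNA extraction were not stated in them. Each group had 1 oligonucleotide array, so no ratio within a line has a replicate check, and a difference between cultures and a difference between states cannot be told apart. Bulk RNA was measured, so fewer cells that express a gene and less of its RNA per cell cannot be told apart either.

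Immediate-early genes are switched on within minutes of a stimulus by factors that are already present in the cell, without new protein synthesis, and their transcripts are short-lived. Signals such as growth factors, antigen receptor engagement and stress reach them through MAP kinases, which activate serum response factor (SRF) with its ELK partners, and CREB and ATF proteins. FOS and JUN family proteins pair through leucine zippers to form AP-1, whereas EGR proteins bind GC-rich DNA through zinc fingers and are induced in B cells after stimulation of the B-cell receptor. IER2 is a small nuclear protein of the same early wave, and ATF3 is a stress-induced bZIP factor.

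The promoters of 4 members are printed because EGR1 and FOS had the highest ratios in Raji/R, JUN had the lowest in Jeko-1/R, and FOSB is a close relative of FOS. The 250 bases before the start site were read from RefSeq on GRCh38.p14, in which 8 of the 9 measured genes were matched and EGR3 is not shown. The windows are chr5:138465229-138465478 on the plus strand for EGR1, chr14:75278578-75278827 on the plus strand for FOS, chr19:45467746-45467995 on the plus strand for FOSB and chr1:58784048-58784297 on the minus strand for JUN. Capitals mark matches on either strand to 6 motifs: the CArG box bound by SRF, the CRE half-site TGACGT, the AP-1 site TGANTCA, the variant AP-1 site TGACATCA, the EGR site GCGNGGGCG and the TATA element TATAAA. No marked matches overlap in these 4 sequences, whereas in JUND, not shown, 2 of 3 matches to the half-site overlap.
EGR1: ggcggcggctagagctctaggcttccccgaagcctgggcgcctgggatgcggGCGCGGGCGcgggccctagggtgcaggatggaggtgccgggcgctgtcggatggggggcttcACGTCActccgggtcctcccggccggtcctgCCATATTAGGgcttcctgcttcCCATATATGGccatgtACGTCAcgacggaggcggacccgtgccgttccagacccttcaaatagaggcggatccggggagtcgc
FOS: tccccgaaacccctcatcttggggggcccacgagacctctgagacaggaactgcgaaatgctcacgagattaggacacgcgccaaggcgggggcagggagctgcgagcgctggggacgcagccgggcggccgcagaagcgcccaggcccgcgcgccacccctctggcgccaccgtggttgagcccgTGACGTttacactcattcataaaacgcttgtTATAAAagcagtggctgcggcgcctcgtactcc
FOSB: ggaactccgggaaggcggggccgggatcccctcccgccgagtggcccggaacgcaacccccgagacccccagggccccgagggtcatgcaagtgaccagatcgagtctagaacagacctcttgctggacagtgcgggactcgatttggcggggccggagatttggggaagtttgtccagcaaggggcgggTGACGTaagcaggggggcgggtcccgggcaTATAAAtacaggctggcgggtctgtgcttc
JUN: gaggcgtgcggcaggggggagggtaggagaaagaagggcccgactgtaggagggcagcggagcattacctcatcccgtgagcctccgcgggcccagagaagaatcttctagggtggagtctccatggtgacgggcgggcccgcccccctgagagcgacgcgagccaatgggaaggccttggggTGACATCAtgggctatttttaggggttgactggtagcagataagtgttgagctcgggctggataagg

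The EGR1 window held 2 CArG boxes, CCATATTAGG and CCATATATGG, together with 2 CRE half-sites and 1 EGR site. A CArG box was found in 1.16% of the 35116 promoter windows of this length in the RefSeq table, and in 1 of the 8 members. FOS and FOSB each held 1 CRE half-site followed by a TATA element, and JUN held the variant AP-1 site. The CRE half-site was present in 7.1% of all windows and in 4 of 8 members (EGR1, FOS, FOSB and JUND). TATAAA was in 10.7% of windows and in 4 members, counting a second start site of ATF3. Its first base lay at -230 from that ATF3 start site, against -33, -30 and -31 in FOS, FOSB and JUNB. TGACATCA was in 2.37% of windows and in 2 members, JUN and ATF3. The EGR site was in 8.41% of windows and in 1 member, and TGANTCA in 6.57% and in 0 members. A match describes the letters only, and elements outside this window were not examined.

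The arrays matched their labels on the mantle cell and B-cell markers, whereas the germinal centre or Burkitt markers did not separate the lines. Those 4 genes (MME, BCL6, CD38 and MYC) summed to 24945 and 21225 in the Jeko-1 pair and to 23158 and 22541 in the Raji pair. The mantle cell markers CCND1 and SOX11 had a summed signal of 25014 and 23131 in Jeko-1 and Jeko-1/R and of 12.6 and 49.8 in Raji and Raji/R, and all 5 measured B-cell markers stood above the floor on each array. The floor was the pooled median of all values, a signal of 77.5 (6.28 on the log2 scale), and lower values were raised to it before a ratio was taken. The summed signal of 5 T-cell markers lay between 128 and 421 on the 4 arrays, that of 4 measured myeloid markers between 122 and 366, and that of 4 epithelial markers between 398 and 667. The 4 fibroblast markers summed to 192 and 101 in the Jeko-1 pair and to 2129 and 1890 in the Raji pair, and COL3A1 was listed at a log2 value of 0 in Jeko-1/R. Of these markers, CD3D, COL1A2 and KRT18 were at least 2-fold higher in Raji/R than in Raji, reaching 180, 264 and 381, and the B-cell factor gene PAX5 was lower (-1.24). The part of these markers in the results was not tested. On the Raji/R array 55.6% of probe sets reached the floor, against 48.0% to 48.3% on the others, and low signals there lay higher relative to Raji. The only available measure of error within a line is the disagreement among probe sets of 1 gene, an SD of the log2 ratio of 0.25 for Jeko-1/R and 0.49 for Raji/R.

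**Figure D1:**
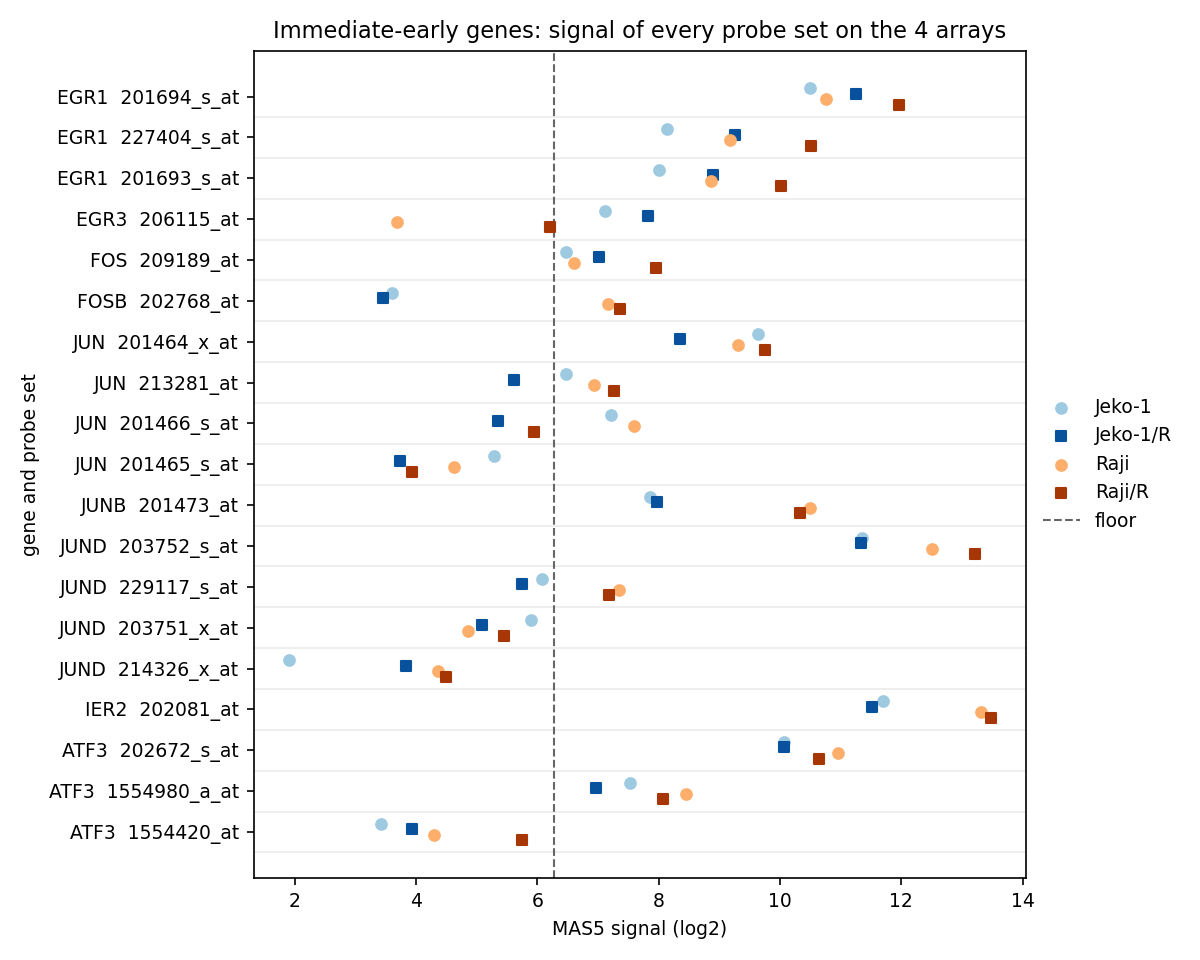
The horizontal axis gives the log2 MAS5 signal and each row is 1 of the 19 probe sets, with a point for each of the 4 arrays; the dashed line is the floor at 6.28. All 3 EGR1 probe sets stand to the right in Jeko-1/R and Raji/R relative to their parents, and the JUNB, JUND and IER2 points above the floor separate the Jeko-1 arrays from the Raji arrays.

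EGR1, a zinc finger factor induced by antigen receptor and growth factor signals, was the one member with several measured probe sets that stood higher in both sublines on each of them. The brightest had a signal of 1443 in parental Jeko-1 and 2442 in its subline, and of 1727 in parental Raji and 3994 in its subline. Both sublines stood above both parents. The log2 ratio was 0.76 in Jeko-1/R, a 1.69-fold difference, and 1.21 in Raji/R, a 2.31-fold difference. The next brightest probe set gave 282, 614, 575 and 1455 in the same order, with log2 ratios of 1.12 and 1.34. The dimmest gave 258, 475, 465 and 1031, with 0.88 and 1.15. Sublines and parents did not overlap on these dimmer probe sets either, although Jeko-1/R lay close to parental Raji on both. Over the 3 probe sets the mean log2 ratio was 0.92 ± 0.19 for Jeko-1/R and 1.23 ± 0.10 for Raji/R, where the error is the SD over probe sets. Of 11588 genes measured in the Jeko-1 pair 118 had a higher ratio than EGR1, and of 14642 in the Raji pair 584 did. Because these 3 probe sets read 1 RNA extract per group, their agreement covers differences between probes and not between cultures. With the floor at the 75th percentile of all values, the 2 dimmer probe sets stood at 0.74 and 0.37 in Jeko-1/R. Parental Jeko-1 lay below that higher floor on both, so these are lower bounds.

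EGR3, a relative of EGR1 that is also induced through antigen receptors, was measured in the Jeko-1 lines. Its only probe set read 139 in the parent and 228 in the subline, which is 0.71 on the log2 scale. The Raji arrays read 12.9 and 73.8, both under the floor, so no ratio is given for that line. EGR3 was therefore above the floor on the arrays of 1 line only.

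FOS, the founding partner of JUN in AP-1, had low signals on all 4 arrays. Its single probe set read 88.5 and 129 in the Jeko-1 parent and subline and 96.8 and 247 in those of Raji. Both sublines were again above both parents, and Raji/R stood apart from the other arrays. The log2 ratio was 0.54 for Jeko-1/R and 1.35, a 2.55-fold difference, for Raji/R. In Raji/R many genes of such low signal were higher, and after a lowess adjustment for this dependence the FOS ratio was 1.10. Of 14642 genes in the Raji pair, 389 had a higher ratio than FOS, and of 11588 in the Jeko-1 pair, 390 did. FOSB, the close relative whose promoter is printed above beside that of FOS, read 12.1 and 11.0 on the Jeko-1 arrays, below the floor, and 143 and 165 on the Raji arrays. Its log2 ratio in Raji/R was 0.21, and -0.04 after the lowess adjustment and -0.12 with quantile normalization. FOSB thus had a measured signal in the Raji lines alone, with little difference between parent and subline.

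JUN, the AP-1 subunit that also binds its own promoter, was lower in Jeko-1/R, whereas its probe sets disagreed in Raji/R. The brightest read 797 in the Jeko-1 parent, 326 in its subline, 630 in the Raji parent and 868 in its subline. Jeko-1/R was the lowest of the 4 arrays, with a log2 ratio of -1.29 or a 2.45-fold difference, and only 21 of 11588 genes had a lower ratio. In Raji/R the same probe set was higher, with a log2 ratio of 0.46. This probe set carries the suffix x_at, which marks probe sets that may also bind transcripts of other genes. The only JUN probe set without an x_at or s_at suffix read 89.2, 49.3, 122 and 154 in the same order. The Jeko-1/R value lies below the floor, so it was at least 1.15-fold lower there, and the log2 ratio for Raji/R was 0.34. That Raji/R ratio was 0.10 after the lowess adjustment and 0.02 with quantile normalization. The brighter of the s_at probe sets read 148, 40.9, 192 and 61.6. It was lower in both sublines, by at least 1.91-fold for Jeko-1 and by at least 2.48-fold for Raji. The other s_at probe set stayed below the floor on all 4 arrays, at 39.3, 13.3, 24.7 and 15.3. Each of the 3 measured probe sets was thus lower in Jeko-1/R, with a mean log2 ratio of -0.81 ± 0.55 (SD over probe sets). In Raji/R 2 probe sets were higher and 1 was lower, and the mean was -0.17 ± 0.99. Taking the mean of probe sets in place of the brightest one therefore turned the direction of JUN in Raji/R. The same mean left JUN short of 2-fold in Jeko-1/R, and without x_at and s_at probe sets its ratio there was -0.20. Both of these Jeko-1/R values include or are bounds set by the floor, so they do not show that JUN fell less than 2-fold. With a pseudocount of 32 in place of the floor, the probe set without a suffix stood at -0.58 in Jeko-1/R and the brighter s_at one at -1.30.

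JUNB and JUND, the JUN relatives that are often weaker activators than JUN, differed between the lines more than between parent and subline. JUNB, with 1 probe set, read 230 and 251 on the Jeko-1 arrays and 1442 and 1286 on the Raji arrays, parents first, with log2 ratios of 0.13 and -0.16 for the sublines. The Jeko-1 arrays and the Raji arrays did not overlap. The brightest JUND probe set read 2611, 2572, 5839 and 9487 in the same order. Its log2 ratio was -0.02 for Jeko-1/R and 0.70, a 1.62-fold difference, for Raji/R. The dimmer s_at probe set read 67.6 and 53.4 on the Jeko-1 arrays and 162 and 145 on the Raji arrays. Its log2 ratio for Raji/R was -0.16, opposite in sign to the brightest, and the mean of both was 0.27 ± 0.61 (SD over probe sets). The other 2 JUND probe sets, both x_at, lay below the floor on all arrays, between 3.74 and 59.7.

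IER2 and ATF3 differed little between parents and sublines. IER2, also with 1 probe set, read 3321 and 2935 on the Jeko-1 arrays and 10170 and 11335 on those of Raji, and its log2 ratios were -0.18 and 0.16. The Raji arrays were higher than the Jeko-1 arrays. The brightest ATF3 probe set read 1069, 1070, 1990 and 1599 in the same order, with log2 ratios of 0.00 and -0.32. The next brightest read 185, 125, 350 and 268, with log2 ratios of -0.57 and -0.38. The means of both were -0.28 ± 0.40 and -0.35 ± 0.05 (SD over probe sets). The remaining one stayed below the floor, between 10.7 and 53.3.

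Counted as a set by the brightest probe set of a gene, 0 of 8 measured members were at least 2-fold higher in Jeko-1/R, where 0.38% of all measured genes were, and 1 (JUN) was at least 2-fold lower, where 0.595% were. In Raji/R 2 of 8 members (EGR1 and FOS) were at least 2-fold higher, against 7.01% of genes, and 0 were lower, against 2.64%. Counted in either direction, 0.975% of genes differed 2-fold in the Jeko-1 pair and 9.64% in that of Raji. Counted by probe set, 1 of 13 was higher and 1 was lower in Jeko-1/R (0.435% and 0.551% of all, 0.986% either way), and 4 of 14 were higher and 1 was lower in Raji/R (7.43% and 2.94%, 10.4% either way). For Jeko-1/R the measured members had a median log2 ratio of 0.06, and for Raji/R 0.34, beside 0.00 and 0.08 over all measured genes. The members were picked for these differences, so nothing is read from the counts. Quantile normalization changed the split of all genes in Raji/R from 1026 higher and 386 lower to 827 and 715. Under it EGR1 stood at 1.15 and FOS at 1.29, so both remained above 2-fold.

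**Figure D2:**
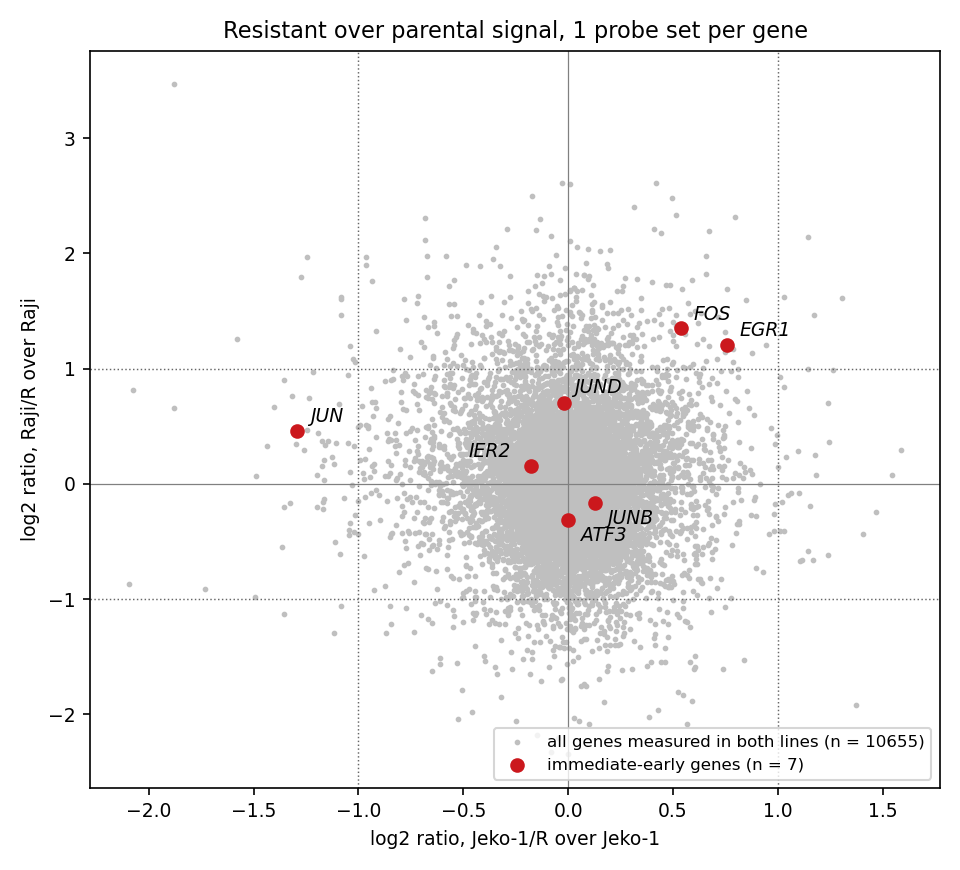
The axes give the log2 ratio of resistant over parental signal in the Jeko-1 pair (horizontal) and the Raji pair (vertical), with 1 probe set per gene; grey points are the 10655 genes measured in both lines, red points the 7 members among them, and dotted lines mark 2-fold. EGR1 (0.76 and 1.21) and FOS (0.54 and 1.35) lie in the upper right, and JUN (-1.29 and 0.46) lies in the upper left.

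**Figure D3:**
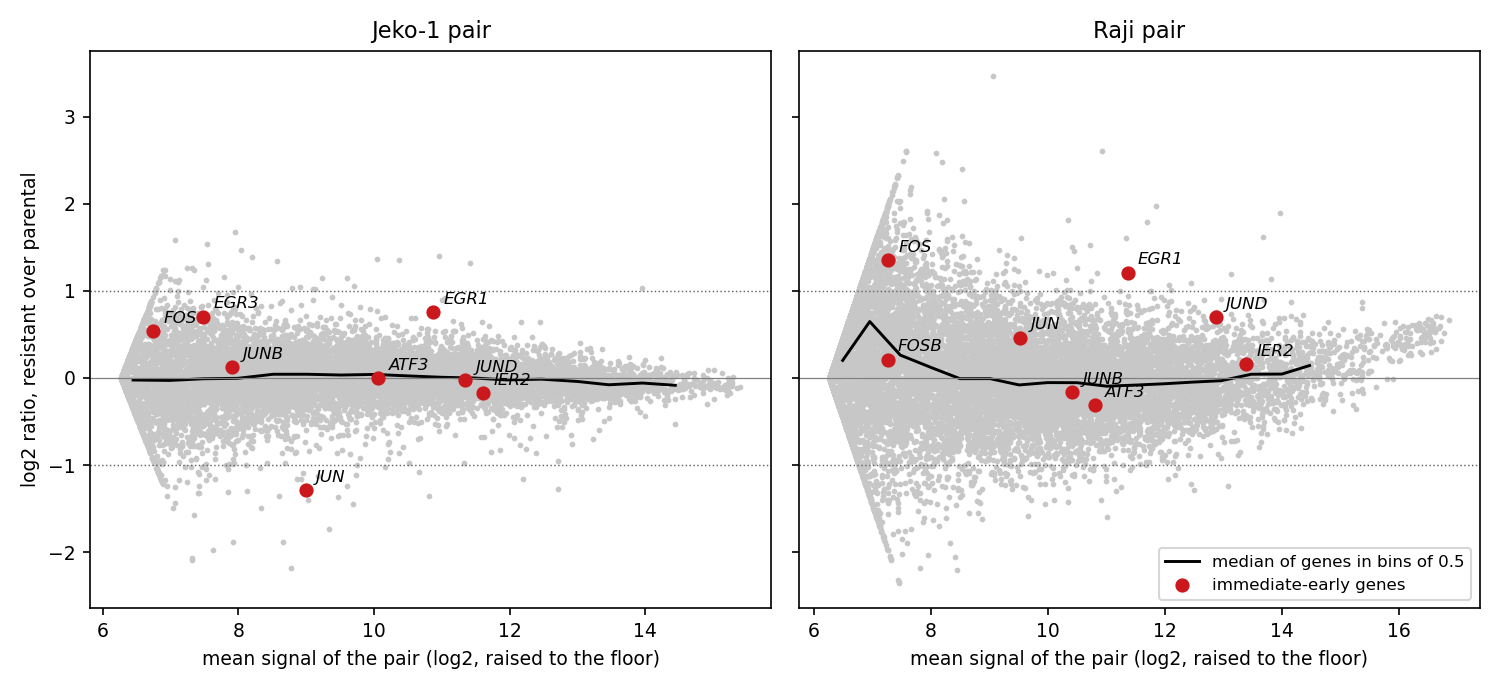
Each panel sets the log2 ratio of resistant over parental signal against the mean log2 signal of the pair, with Jeko-1 on the left and Raji on the right; grey points are measured genes, the black line is their median in bins of signal, and red points are members. In the Raji pair the median rises at low signal, where FOS (1.35) and FOSB (0.21) lie, and EGR1 (1.21) lies where the median is near 0.

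The difference between the cell lines was not used to choose the members and was tested. Most members with a call were lower in the Jeko-1 lines than in the Raji lines. JUNB had the largest difference, with a mean log2 signal of 7.91 in the Jeko-1 lines and 10.41 in the Raji lines, a log2 difference of -2.50 ± 0.25 (SE, limma, adjusted p = 0.000284, n = 2 arrays a line). IER2 differed by -1.78 ± 0.26 (limma, adjusted p = 0.0012) and the brightest JUND probe set by -1.52 ± 0.28 (limma, adjusted p = 0.0038). The 2 ATF3 probe sets that were tested differed by -0.74 ± 0.25 and -1.01 ± 0.25 (limma, adjusted p = 0.0474 and 0.0133). For EGR1 the 2 dimmer probe sets differed by -1.14 and -0.99 (limma, adjusted p = 0.00809 and 0.0152), whereas the brightest did not pass at -0.48 ± 0.26 (limma, adjusted p = 0.172). FOS stood at -0.53 ± 0.29 and did not pass (limma, adjusted p = 0.175). JUN did not pass on its 3 probe sets, at -0.54 ± 0.41, -0.72 ± 0.27 and -0.19 ± 0.26 (limma, adjusted p = 0.326, 0.0611 and 0.582). EGR3 was higher in the Jeko-1 lines by 1.20 ± 0.28 (limma, adjusted p = 0.0105). FOSB and the dimmer JUND probe set differed by -0.99 and -0.98 (limma, adjusted p = 0.0147 and 0.0148). Those 3 probe sets were below the floor on both arrays of 1 line and entered the fit only through the line in which they were high, so they had to differ.

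Of the 19 probe sets, 15 entered the fit and 10 passed an adjusted p of 0.05, a threshold that 49.7% of all 29669 probe sets also passed. Of the 15, 9 passed as lower and 1 as higher in the Jeko-1 lines, where 24.5% and 25.2% of all probe sets did. Without the 3 that had to differ, EGR3 among them, 7 of 12 passed, all lower in the Jeko-1 lines: JUNB, IER2, and 1 of JUND, 2 of ATF3 and 2 of EGR1. Of the 19522 probe sets that reached the floor in each line, 59.8% passed, 30.2% lower and 29.6% higher, so the share of members called was near that of all. The median difference was -0.98 over the 15 and -0.17 over all. Parent and subline stood as the 2 samples of a line. With resistance as a term the shift that both sublines share is taken out. The p-values therefore set the mean difference between the lines against how far the resistant over parental ratios of the lines differ. Empirical Bayes moderation draws this spread toward that of all probe sets. The SE was 0.25 to 0.29 for every member probe set except the brightest of JUN (0.41). The p-values hold no spread between separate cultures, since the labels name none within a group. With cell line as the only term and all 4 arrays, 9 of 15 passed, beside 48.4% of all. The 2 EGR1 probe sets no longer did (limma, adjusted p = 0.243 and 0.227). The JUN probe set without an x_at or s_at suffix passed in this fit (limma, adjusted p = 0.0443). Fits to 3 arrays also had cell line as their only term, since 3 arrays leave no residual for a second, and the lone array of a line was assumed to vary like the pair of the other. Without the Jeko-1 or the Jeko-1/R array, when the spread came from the Raji pair, 0 of 15 passed in limma (5 had an unadjusted p under 0.05 in each case) and 0 of all 29669 did. Without the Raji or the Raji/R array, when it came from the Jeko-1 pair, 6 passed in each case, beside 53.5% and 39.7% of all. In these 4 fits the EGR1 differences ran from -1.81 to -0.47 and from -1.56 to -0.41, and neither passed in any. The JUNB difference lay between -2.59 and -2.42, with adjusted p from limma of 0.0572 and 0.0578 without the Jeko-1 parent or subline, and 0.0207 and 0.0261 without those of Raji. When probe sets below the floor on all arrays were included, each with 4 equal values at the floor, 0 of 19 passed, beside 2.94% of all 41091 probe sets.

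**Figure D4:**
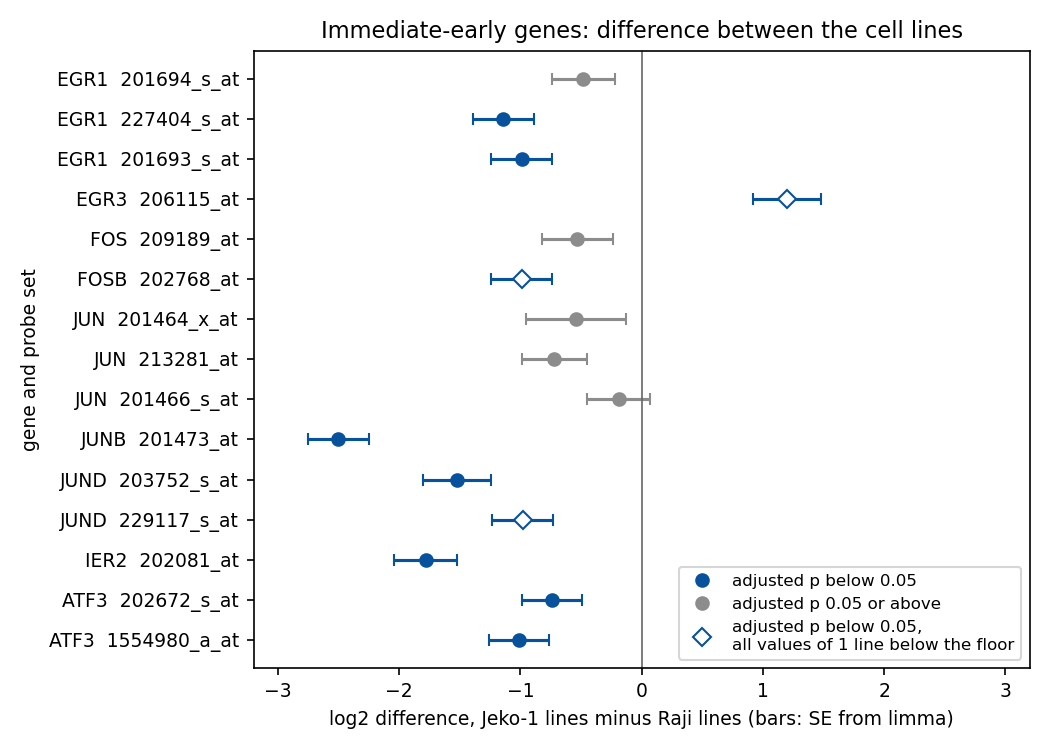
The horizontal axis gives the log2 difference between the Jeko-1 lines and the Raji lines for the 15 member probe sets in the fit, with bars of 1 SE from limma; blue points passed an adjusted p of 0.05, grey points did not, and open diamonds were below the floor on both arrays of 1 line. JUNB lies farthest from 0 at -2.50, and EGR3 at 1.20 is the one point to the right of 0.

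Over 9 lists of related genes, each gene was counted by its brightest probe set, and dimmer ones were left out of the counts. In Jeko-1/R 4 of 102 measured genes were at least 2-fold lower and 0 higher. In Raji/R 7 of 100 were higher and 3 lower, beside the shares of all genes given above. After the lowess adjustment the Raji/R split was 5 higher and 5 lower. The ERK cascade with SRF and its ELK and MRTF partners carries stimuli to these genes. By this count 0 of 15 measured genes in Jeko-1/R and 0 of 16 in Raji/R were changed 2-fold, with medians of 0.07 and 0.15. Probe sets of MRTFA differed in Raji/R, with 0.43 from the brightest and 0.82 from another. A dimmer one stood at 1.16 there, or 0.95 after the lowess adjustment, and a further one was at least 2.88-fold higher. SRF itself stood at -0.29 and 0.27 in the 2 sublines. In the JNK and p38 cascades 0 of 10 were changed in Jeko-1/R, and 1 of 9 was lower in Raji/R, the apoptosis-signal kinase gene MAP3K5 (1703 in Raji and 799 in Raji/R, -1.09, with -0.16 from its other probe set). Among MAP kinase phosphatases and Sprouty proteins, which switch the cascades off, 0 of 10 were changed in Jeko-1/R, against 1 of 11 in the Raji pair. This was the JNK phosphatase gene DUSP16, at 255 in Raji and 93.8 in Raji/R (-1.44, with 0.05 from another probe set).

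Other AP-1 and small bZIP factors had 0 of 11 genes changed 2-fold in Jeko-1/R, and 1 of 10 in the Raji pair. That gene was CREM, a CRE-binding factor gene with activator and repressor forms, at 1412 in Raji and 609 in Raji/R (-1.21, with other probe sets at -0.25 to -0.74). Neither EGR4 nor the corepressor genes NAB1 and NAB2, which restrain EGR proteins, were changed 2-fold on their brightest probe sets, with medians of 0.09 and 0.10 over the 3 genes. Integrated stress response genes other than ATF3 had 0 of 9 changed in either line. Textbook AP-1 target genes had 0 of 8 changed in Jeko-1/R and 2 of 6 higher in Raji/R. These were the urokinase receptor gene PLAUR, at 40.7 in Raji and 288 in Raji/R (at least 3.71-fold), and the heme oxygenase gene HMOX1, at 178 in Raji/R (at least 2.30-fold), both from parental values below the floor.

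Of 34 other immediate-early and primary response genes, 28 had a ratio for Jeko-1/R and 29 for Raji/R. Counted by the brightest probe set, 0 were 2-fold higher in Jeko-1/R and 1 was lower. Dimmer probe sets of TNFAIP3 in Jeko-1/R (-1.11, with -0.33 from the brightest) and KLF6 in Raji/R (-1.13, with -0.15) were also lower. The gene counted as lower in Jeko-1/R was RGS1, a brake on G-protein signals in lymphocytes that is itself induced on activation. RGS1 read 10487 and 4339 on the Jeko-1 arrays and 1782 and 6179 on the Raji arrays, with log2 ratios of -1.27 and 1.79, and -1.50 and 1.36 from another probe set. In Raji/R 3 were higher and 0 lower: RGS1, IER3, a survival gene that went from 4.87 to 174 (at least 2.24-fold), and IER5L, from 64.0 to 162 (at least 2.10-fold). After the lowess adjustment IER3 stood at 0.98 and IER5L at 0.90, short of 2-fold. The medians of this list were -0.07 and -0.15. Heat shock genes, which cells raise under proteotoxic stress, had ratios below 0 in Jeko-1/R and mostly above 0 in Raji/R. Of 11 listed, 8 had a named probe set, and HSPA1A, HSPA1B and HSPA8 were not among them. In Jeko-1/R 8 of 8 were below 0 with a median of -0.49, and 3 were at least 2-fold lower: HSPA6 (-1.88), DNAJB1 (-1.25) and HSPB1 (-1.09). In Raji/R 6 of 7 were above 0 with a median of 0.21, and HSPA6 (3.47) and DNAJB1 (1.97) were at least 2-fold higher. The others above 0 there lay between 0.01 (HSPE1) and 0.59 (HSP90AA1). HSPD1 was below 0 in both lines (-0.09 and -0.02), and HSPB1 was under the floor in the Raji pair. On their brightest probe sets JUN and RGS1 had the signs of HSPA6 and DNAJB1 in both lines, as did JUND (-0.02 and 0.70) and IER2 (-0.18 and 0.16). EGR1, FOS, JUNB and ATF3 did not, and the brighter JUN s_at probe set was lower in both sublines. Among genes of the other lists some, such as DUSP1 (-0.92 and 0.66), had these signs and others did not. Whether heat shock or culture stress bears on the immediate-early genes was not tested.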

How the data were processed

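Total RNA was extracted with Trizol and labelled with biotin, per the labels' protocols, and hybridised to an array that the probe annotation identifies as the Affymetrix Human Genome U133 Plus 2.0. The deposited values are log2 signals, 54613 to an array, and MAS5 is the tool that the submitters' processing notes list, without a version. The log base was inferred from the values.

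Gene names came from the platform annotation, with symbols updated by gene ID (RefSeq, GRCh38.p14): 41091 had 1 symbol, 1801 several and 11721 none, and 41037 matched by ID. Values below the pooled median were raised to it. The probe set of highest mean signal stood for its gene, and 2-fold counted as changed. A ratio with 1 value below the floor is a bound, written "at least". With 1 array a group, precision is limited by the number of arrays and no ratio within a line was tested.

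Lines were compared with limma 3.58.1 (R 4.3.3), with cell line and resistance as terms and empirical Bayes moderation, over 29669 probe sets that reached the floor on at least 1 array; p-values are two-sided, with Benjamini-Hochberg adjustment. The fit was tested on simulated data. Scripts used Python 3.11.15, pandas 2.3.3 and statsmodels 0.14.6 (lowess, fraction 0.3). Members, pathway lists and tests were chosen with earlier results of these data known. Named pathway genes were those changed 2-fold in a line with no other probe set at 2-fold in the reverse direction. SRF, MRTFA, EGR4, NAB1, NAB2, DUSP1, TNFAIP3, KLF6, HSPD1, HSPE1 and HSP90AA1 were named outside this rule, after their values were seen. Alternatives were quantile normalization, lowess, the floor at the 75th percentile, a pseudocount of 32, the mean of probe sets, probe sets without x_at or s_at, a 1.5-fold size, cell line as the only term, no filter, and leaving out each array with cell line as the only term.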

Additional observations from a re-analysis of the deposited data

Results flagged for a closer look

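Resistant over parental ratios that ran opposite ways in the 2 lines are given here as the ratio in Raji/R minus that in Jeko-1/R, on the log2 scale. With 1 array a group these differences were not tested. Among members the difference was 1.75 for the brightest JUN probe set (-1.29 for Jeko-1/R and 0.46 for Raji/R). For the JUN probe set without a suffix x_at or s_at it was 0.55 (-0.20 and 0.34). The -0.20 is a bound, with the Jeko-1/R value below the floor, and the 0.34 became 0.10 after the lowess adjustment. JUND differed by 0.72 (-0.02 and 0.70), IER2 by 0.33 (-0.18 and 0.16) and JUNB by -0.29 (0.13 and -0.16). The latter values lie near the spread between probe sets of 1 gene, whose SD was 0.25 for Jeko-1/R and 0.49 for Raji/R. Among pathway genes changed 2-fold in a line, HSPA6 differed by 5.35 (-1.88 and 3.47) and the co-chaperone gene DNAJB1 by 3.22 (-1.25 and 1.97). RGS1 differed by 3.07 (-1.27 and 1.79), PLAUR by 1.98 (-0.09 and 1.89) and IER3 by 1.21 (-0.05 and 1.17), the last 2 with a Raji value below the floor.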

How the results depend on the processing

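With quantile normalization, the lowess adjustment and the pseudocount, the count of members changed 2-fold stayed at 1 (JUN) for Jeko-1/R and 2 (EGR1 and FOS) for Raji/R. For Jeko-1/R it became 0 when probe sets of a gene were averaged and 0 when x_at and s_at probe sets were dropped. In both cases JUN was read through bounds set by the floor, so a fall of less than 2-fold is not shown. At 1.5-fold the Jeko-1/R count was 3, when EGR1 and EGR3 joined JUN. For Raji/R the count became 1 with a floor at the 75th percentile, below which FOS lies. It was also 1 when x_at and s_at probe sets, which include all of EGR1, were dropped. At 1.5-fold it was 3, with JUND. Of the members in the fit between lines, 6 of 8 passed with the floor at the 75th percentile (68.4% of all probe sets), 0 of 19 without the filter on low values (2.94% of all), and 0 to 6 of 15 when 1 array was left out (0 to 53.5% of all); the cause of the 0 without the filter was not tested. Leaving out an array also dropped resistance as a term, so a parent or subline then stood against the mean of the other line's pair. Differences that had not passed turned sign in those fits: the brightest EGR1 probe set ranged from -1.09 to 0.12 (higher without Raji/R), FOS from -1.21 to 0.14 (without Raji/R), the brightest JUN probe set from -1.18 to 0.11 (without Jeko-1/R) and the brighter JUN s_at probe set from -0.84 to 0.47 (without Raji; 0.28 without Jeko-1/R). Parent and subline are matched by cell line, not by replicate number, and resistance as a term carries this. With cell line alone 9 probe sets passed in place of 10. Quantile normalization gave 11 of 15 (49.3% of all), with the JUN probe set without a suffix added (limma, adjusted p = 0.0472). A pseudocount of 32 gave 7 of 15 (44.9% of all). Both tested ATF3 probe sets and the dimmest EGR1 one then no longer passed (limma, adjusted p = 0.109, 0.0665 and 0.0608). The 2-fold count over all genes was 26 for Jeko-1/R and 139 for Raji/R with the higher floor, against 113 and 1412. FOS, FOSB, EGR3 and 3 of 4 JUN probe sets lay near or below the floor, where signal limits what can be read.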

Other observations

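Some patterns across the 4 arrays resembled those of the members. Likeness was measured as the root mean square difference of centred log2 values over 4 arrays, 1 per group, among 15574 other genes; the median difference from EGR1 over those genes was 0.68. FOS was the second nearest gene to EGR1 (0.095), behind WDR25 (0.066), a WD repeat gene with signals of 110 and 180 on the Jeko-1 arrays and 144 and 304 on the Raji arrays, parents first; C18orf61 came next (0.106). Nearest to FOS were PRODH2 (0.054), LINC01770 (0.058) and STAC2 (0.067), each below the floor in both parents. Nearest to JUN were TMEM52 (0.086), MEDAG (0.104) and MAPT-AS1 (0.120), all with signals between 63.9 and 225. EGR1 and FOS had been chosen for higher ratios in a resistant subline on these same arrays, which favoured their nearness from the start. Nothing follows from these likenesses about shared control.

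EGR4, the fourth EGR gene, was read by 3 probe sets that did not move together, and it was singled out after its values were seen. Its brightest read 73.8 and 90.0 on the Jeko-1 arrays and 162 and 174 on the Raji arrays, a log2 ratio of 0.10 for Raji/R. A second read 2.10, 30.7, 70.3 and 337 in the same order, at least 4.34-fold higher in Raji/R. The last was below the floor in the Jeko-1 pair and went from 114 to 193 in the Raji pair, a log2 ratio of 0.76. DUSP1, a MAP kinase phosphatase gene of the same early wave, was also singled out after its values were seen. It gave 1226, 649, 602 and 951, with log2 ratios of -0.92 and 0.66, and a second probe set was at least 2.38-fold higher in Raji/R.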
